A study of Mus musculus with 84 samples.

Results

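The genes described here encode 10 subunits of the Polycomb complexes, taken as the rows of the deposited read counts with the symbols Ezh2, Ezh1, Eed, Suz12, Jarid2, Mtf2, Rnf2, Bmi1, Cbx2 and Cbx7. All 10 were found among 18909 genes. Their RNA was followed from mouse embryonic fibroblasts (MEFs) through reprogramming to embryonic stem cells (ESCs), in 10 groups of 3 biological replicates measured with STRT RNA-seq, which sequences the 5′ ends of transcripts. MEFs were wild-type cells of the 129 strain, grown with FGF2 and heparin. ESCs were TNG MKOS cells in medium with LIF. The reprogramming cells were MEFs of the same TNG MKOS line from chimeric embryos, with a Nanog-GFP reporter in place of 1 Nanog allele and the reprogramming factors (c-Myc, Klf4, Oct4, Sox2) joined to mOrange in a cassette that doxycycline switches on. They were mixed into an excess of wild-type MEFs and cultured in ESC medium with LIF, vitamin C and 300 ng/ml doxycycline. They received a retroviral vector for a blue fluorescent protein (Cont) or for constitutively active Smad3 (+Sm3CA), and were sorted for mOrange on days 3, 6, 8 and 10. Cont cells of day 3 therefore differed from MEFs in genotype, medium, virus and sorting as well as in reprogramming, and these cannot be told apart. ESCs likewise differed from MEFs in genotype and medium, and from Cont cells of day 10 in virus, doxycycline and vitamin C. MEFs, ESCs and day 3 were in plate rows A to C, days 6 and 8 in D to F and day 10 in G and H. Differences between day 10 and day 3 or ESCs thus cannot be told apart from plate rows. ESCs and all reprogramming cells came from 1 line.

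Polycomb proteins keep genes silent through chromatin. Polycomb repressive complex 2 (PRC2) methylates lysine 27 of histone H3 through Ezh2 or Ezh1, and needs Eed and Suz12 to do so, while Jarid2 and Mtf2 help bring it to CpG-rich target genes. Polycomb repressive complex 1 (PRC1) ubiquitinates histone H2A through Rnf2, with Bmi1 as a partner in some forms and chromobox proteins such as Cbx2 and Cbx7, which bind methylated histone H3, in its canonical form. In ESCs both complexes sit at genes of development.

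The wells of each replicate were summed to 30 libraries of 1008596 to 2296059 reads. Values below are read counts divided by DESeq2 size factors over all libraries (normalized counts), given for replicates 1, 2 and 3 in that order. They compare libraries for 1 gene and not genes with each other. Reads were not collapsed to molecules. A library with 3 reads or fewer of a gene was taken as not detecting it, which was 1.79 to 5.42 normalized counts depending on the library. In bulk samples such as these, fewer cells of a type and less RNA per cell cannot be told apart. Differences are log2 fold changes with standard errors from edgeR's quasi-likelihood test, and a gene was called at a Benjamini-Hochberg adjusted p under 0.05 over all genes tested. With 3 libraries against 3, an exact permutation test cannot give a p below 0.1.

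The labels were checked first. Smad3 counts, which include the vector, were 184, 89 and 126 in +Sm3CA and 18.7, 5.19 and 8.94 in Cont on day 3. On day 6 they were 49.6, 90.8 and 47.2 against 11.1, 22 and 14.9, on day 8 they were 77.9, 82.1 and 48.4 against 9.06, 8.44 and 7.16, and by day 10 they were 47.7, 32.8 and 44.3 against 14.8, 21.5 and 25.4. Every +Sm3CA library lay above all Cont libraries of its day. The day 3 libraries differed by 3.53 (standard error 0.34, adjusted p = 1.51e-08). The difference of day 8 came to 3.11 (standard error 0.37, adjusted p = 2.38e-06) and that of day 6 to 2.02 (standard error 0.33, adjusted p = 0.00459). The call of day 6 was lost without Cont day 6 replicate 1 (1.80, adjusted p = 0.317) or 3 (1.99, adjusted p = 0.0938), without +Sm3CA day 6 replicate 2 (1.63, adjusted p = 0.584) and with 1 plate row per library (1.92, adjusted p = 0.119), in a range from 1.3e-07. On day 10 the difference of 1.00 (standard error 0.36, adjusted p = 0.12) was not called, except with no filter on low counts (1.01, adjusted p = 0.0473, in a range to 0.302).

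Cell type markers were checked in the same way. The 8 markers of pluripotent cells summed to 32430, 53960 and 29000 normalized counts in ESCs, most of them Dppa5a, and to 8.89, 11.9 and 12.1 in MEFs, where Esrrb, Fgf4 and Tfcp2l1 had no read. The 8 fibroblast markers summed to 4334, 3898 and 5389 in MEFs, led by Col1a2, and to 4.57, 5.42 and 2.57 in ESCs, where Col1a2, Col3a1 and Lum had no read. The 5 macrophage markers also had reads in MEFs, with sums of 1912, 1123 and 457, mostly Lyz2, and none of the 5 at 0. The 4 endothelial markers summed to at most 32.2 in any library.

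Between ESCs and MEFs, 8 of the 10 subunits were called, where 52.3% of the 8798 genes tested were called. They were 7 higher in ESCs (23.5% of all genes) and 1 lower (28.8%). Ezh1 and Cbx2 had too few reads to be tested. Some alternatives that tested Ezh1 called it higher in ESCs, as with all 30 libraries in the fit (2.22, adjusted p = 0.00287) or without ESC replicate 2 (2.65, adjusted p = 0.00022), in a range to 0.206. Between Cont of day 3 and MEFs, 3 of 10 were called against 43.4% of 10979 genes, 1 higher (22.6%) and 2 lower (20.9%). Between ESCs and Cont of day 10, 8 of 10 were called against 51.8%, 7 higher (21.5%) and 1 lower (30.3%). From day 3 to day 10 of the Cont series, 5 of the 9 subunits tested were called against 25.3% of 10237 genes, all 5 higher (13.6%) and 0 lower (11.6%). This count was 3 without Cont day 3 replicate 1 or Cont day 10 replicate 2, and 2 with 1 plate row per library. In the +Sm3CA series 6 of 9 were called against 33.7%, all 6 higher (17.6%) and 0 lower (16.2%). Cbx7 was not tested in the main edgeR fit of the reprogramming series. DESeq2, which tested it, called 7 subunits in +Sm3CA, Cbx7 being the further one. With no filter on low counts edgeR called Cbx7 there too (3.84, adjusted p = 0.0161), as it did in some fits with 1 library left out. In the main fits Cbx7 passed the filter on low counts only where ESC libraries were included. A gene could pass this filter through 1 group alone. Between ESCs and MEFs, Jarid2 held 9, 16 and 13 reads in MEFs and passed only through ESCs. Bmi1 held 4, 3 and 7 reads in ESCs and passed only through MEFs. Being tested was thus not independent of their level in the higher group. The tested subunits were those that passed this filter. Their median log2 change was 2.14 between ESCs and MEFs (all genes −0.07), 0.29 between Cont of day 3 and MEFs (0.00), 1.65 between ESCs and Cont of day 10 (all genes −0.15), 0.75 over the Cont series (0.09) and 1.31 over the +Sm3CA series (0.05). The comparisons with MEFs share the MEF libraries, and those with ESCs the ESC libraries.

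**Figure D1:**
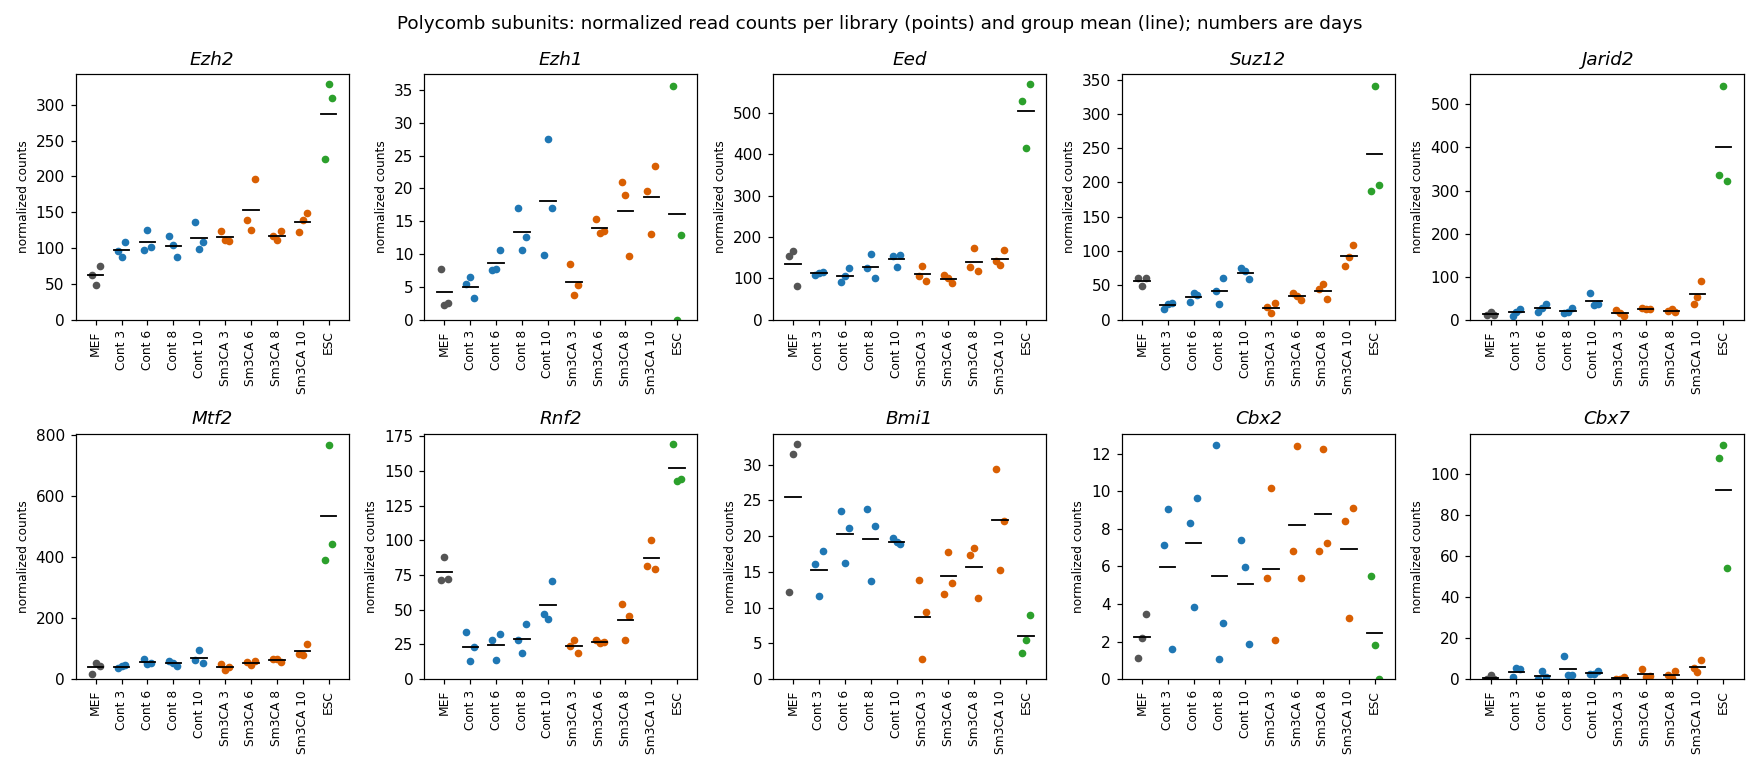
Normalized read counts of the 10 subunits, with 1 panel per gene, the 10 groups on the horizontal axis and normalized counts on the vertical axis. Points are the 3 libraries of a group and lines the group means, and the 3 ESC points of Ezh2, Eed, Suz12, Jarid2, Mtf2, Rnf2 and Cbx7 lie above all other points of the same panel.

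Ezh2, the main catalytic subunit of PRC2 in dividing cells (chromosome 6, 47530139 to 47595341, minus strand of GRCm38), stood at 62.2, 48.9 and 75.2 normalized counts in MEFs. It was 95.4, 86.9 and 109 in Cont on day 3 and 136, 99.2 and 108 on day 10. In ESCs it was 224, 329 and 309.9. The MEF libraries were the lowest and the ESC libraries the highest of all 30, and those of day 3 and day 10 overlapped. Ezh2 was higher in ESCs than in MEFs by 2.20 (standard error 0.32, adjusted p = 3.02e-05) and higher than in Cont of day 10 by 1.32 (standard error 0.21, adjusted p = 1.09e-06). Cont of day 3 lay above MEFs by 0.76 (standard error 0.22, adjusted p = 0.00464). That call was lost without MEF replicate 2 (0.56, adjusted p = 0.0646) and with 1 plate row per library (0.16, adjusted p = 0.696, the highest over its alternatives, whose lowest was 0.00243). Across the reprogramming libraries Ezh2 ranged from 86.9 to 196, and no change from day 3 to day 10 was called.

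Ezh1, the second methyltransferase of PRC2, which is best known from non-dividing cells, had few reads. It stood at 5.35, 6.49 and 3.25 in Cont on day 3 and at 9.88, 27.5 and 17 on day 10. In +Sm3CA it was 8.44, 3.71 and 5.22 on day 3 and 19.6, 13.1 and 23.4 on day 10. In both series the day 10 libraries lay above those of day 3. Ezh1 passed the filter on low counts only through libraries of later days, so being tested was not independent of its later levels. The rise was 1.86 (standard error 0.48, adjusted p = 0.00362) in Cont, where it was lost without Cont day 10 replicate 2 (1.44, adjusted p = 0.0531, from 0.00161 over its alternatives), and 1.64 (standard error 0.46, adjusted p = 0.00579) in +Sm3CA. MEFs held 7.78, 2.17 and 2.59, and ESCs 35.6, 0 and 12.9, the widest spread of any group. In ESC replicate 2, the ESC library with the smallest size factor, 0 of 182 reads of the pair were from Ezh1.

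The share of Ezh2 among the reads of Ezh1 and Ezh2 describes their balance within a library, although the 2 genes differ in length and 5′ ends. It was 88.9%, 95.7% and 96.7% in MEFs and 94.7%, 93.1% and 97.1% in Cont on day 3. On day 10 of Cont it was 93.2%, 78.3% and 86.5%. In ESCs it was 86.3% (95% Wilson interval 81.8% to 89.8%), 100% (97.9% to 100%) and 96% (92.8% to 97.8%), intervals that cover counting error only. These intervals, like the counting intervals of ratios below, treat reads as independent. Since reads were not collapsed to molecules, they may be too narrow. Over days 3, 6, 8 and 10 the group means of Cont were 94.9% ± 2.04 (SD, n = 3), 92.5% ± 1.8, 88.5% ± 2 and 86% ± 7.47. In +Sm3CA they were 95.3% ± 1.57, 91.3% ± 1.93, 87.6% ± 4.48 and 88% ± 2.96. The day 3 libraries lay above those of day 10 in +Sm3CA, and in Cont the highest day 10 library lay just above the lowest of day 3. These shares were not tested.

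Eed, the subunit that binds methylated lysine 27 and stimulates the enzyme (chromosome 7, 89954654 to 89980983, minus strand), stood at 154, 167 and 80.4 in MEFs and at 529, 416 and 569.7 in ESCs. On day 3 of Cont it was 109, 113 and 116, and on day 10 it was 154, 127 and 156. All ESC libraries lay above every other library, and the rest overlapped widely between MEFs and reprogramming cells. Eed was higher in ESCs by 1.94 than in MEFs (standard error 0.33, adjusted p = 0.000139) and by 1.80 than in Cont of day 10 (standard error 0.22, adjusted p = 8.24e-09). Over the reprogramming days neither edgeR nor DESeq2 called a change of Eed, although the day 10 libraries of Cont lay above those of day 3 (0.36, adjusted p = 0.172, and 0.43 with an adjusted p of 0.0805 in +Sm3CA). The +Sm3CA change was called without +Sm3CA day 3 replicate 2 (0.57, adjusted p = 0.0461, in a range to 0.292).

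Suz12, which holds the complex together (chromosome 11, 79993106 to 80034123, plus strand), took another course. It was 61.1, 48.9 and 60.5 in MEFs and 15.2, 23.4 and 24.4 in Cont on day 3. It stood at 26.3, 38.3 and 35.1 on day 6, at 41.9, 22.2 and 60.2 on day 8 and at 75.3, 70.5 and 59.4 on day 10. The day 3 libraries were below all MEF libraries, and those of day 10 overlapped with MEFs. In +Sm3CA Suz12 was 17.6, 10.2 and 24 on day 3 and 78.5, 90.7 and 109 on day 10. ESCs held 188, 341 and 197, more than any other library. The difference from MEFs was −1.32 on day 3 of Cont (standard error 0.32, adjusted p = 0.000776). Between day 3 and day 10 Suz12 rose by 1.69 in Cont (standard error 0.31, adjusted p = 6.2e-05) and by 2.44 in +Sm3CA (standard error 0.31, adjusted p = 9.99e-08). It was higher in ESCs than in MEFs by 2.08 (standard error 0.33, adjusted p = 6.88e-05) and than in Cont of day 10 by 1.81 (standard error 0.27, adjusted p = 5.23e-07).

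Of the accessory subunits, Jarid2 (chromosome 13, 44729474 to 44921643, plus strand) stood at 10, 17.4 and 11.2 in MEFs and at 8.91, 18.2 and 23.6 in Cont on day 3. On day 10 it was 61.7, 34.6 and 35.8 in Cont and 36.5, 53.5 and 88.5 in +Sm3CA, against 21.5, 14.8 and 9.39 in +Sm3CA on day 3. ESCs held 337, 544 and 323. The day 10 libraries lay between those of day 3 and the ESCs with no overlap on either side. Jarid2 rose over the days by 1.35 in Cont (standard error 0.36, adjusted p = 0.00485) and by 1.93 in +Sm3CA (standard error 0.36, adjusted p = 5.71e-05). The Cont call was lost without Cont day 3 replicate 1 (1.02) or day 10 replicate 1 (1.01), each with an adjusted p of 0.0578, and with 1 plate row per library (0.94, adjusted p = 0.113, in a range from 0.00149). In ESCs Jarid2 was higher by 4.95 than in MEFs (standard error 0.39, adjusted p = 4.17e-08) and by 3.18 than in Cont of day 10 (standard error 0.31, adjusted p = 1.13e-11).

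Mtf2, a Polycomb-like protein that binds unmethylated CpG-rich DNA (chromosome 5, 108065674 to 108109004, plus strand), was 17.8, 53.2 and 44.1 in MEFs and 390.1, 766 and 442 in ESCs. It was 35.7, 42.8 and 44.7 on day 3 and 63, 94.4 and 53.7 on day 10 of Cont. In +Sm3CA it was 50.7, 29.7 and 40.7 on day 3 and 82.7, 79.7 and 116 on day 10. The highest reprogramming library thus stayed far under the lowest ESC library. Mtf2 rose over the days by 0.75 in Cont (standard error 0.24, adjusted p = 0.0179) and by 1.19 in +Sm3CA (standard error 0.24, adjusted p = 0.000139). Without Cont day 10 replicate 2 the Cont difference was 0.47 (adjusted p = 0.211, in a range from 0.0111), without Cont day 3 replicate 1 it was 0.65 (adjusted p = 0.0916), and with 1 plate row per library 0.74 (adjusted p = 0.0644). The ESC level was higher by 3.78 than that of MEFs (standard error 0.42, adjusted p = 1.79e-06) and by 2.91 than that of Cont on day 10 (standard error 0.27, adjusted p = 2.53e-12).

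Within PRC1, Rnf2, the catalytic subunit (chromosome 1, 151458004 to 151500955, minus strand), was 71.1, 87.9 and 71.7 in MEFs and 33.9, 13 and 22.8 in Cont on day 3. It stood at 46.9, 43 and 70.7 in Cont on day 10 and at 81.3, 100.5 and 79.4 in +Sm3CA, against 23.8, 27.8 and 18.8 in +Sm3CA on day 3. ESCs held 169, 143 and 144. As with Suz12, day 3 lay under MEFs and day 10 above day 3 in both series, and on day 10 every +Sm3CA library was above every Cont library. Rnf2 differed from MEFs by −1.56 on day 3 of Cont (standard error 0.31, adjusted p = 6.93e-05). It rose to day 10 by 1.16 in Cont (standard error 0.32, adjusted p = 0.0062) and by 1.89 in +Sm3CA (standard error 0.31, adjusted p = 1.06e-05). Without Cont day 10 replicate 3 the Cont rise was 0.87 (adjusted p = 0.0788, in a range from 0.00186), and without Cont day 3 replicate 2 it was 0.91 (adjusted p = 0.0522). Rnf2 was higher in ESCs than in Cont of day 10 by 1.50 (standard error 0.29, adjusted p = 2.59e-05). The difference of 0.99 from MEFs (standard error 0.30, adjusted p = 0.0104) was not called without MEF replicate 1 (0.91, adjusted p = 0.0655, in a range from 0.000402).

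Bmi1, a PCGF subunit known for holding back the Cdkn2a locus (chromosome 2, 18677018 to 18686629, plus strand), was the 1 subunit called lower in ESCs. It was 12.2, 31.5 and 32.8 in MEFs, 19.8, 19.1 and 18.9 in Cont on day 10 and 3.65, 5.42 and 9 in ESCs, where the libraries held 4, 3 and 7 reads. No ESC library reached any MEF or day 10 library. The difference was −2.09 from MEFs (standard error 0.61, adjusted p = 0.00833) and −1.68 from Cont of day 10 (standard error 0.51, adjusted p = 0.00507). In +Sm3CA it was 13.8, 2.78 and 9.39 on day 3 and 29.4, 15.3 and 22.1 on day 10, a rise of 1.31 (standard error 0.41, adjusted p = 0.013). That rise was not called without +Sm3CA day 3 replicate 2 (0.89, adjusted p = 0.101) or day 10 replicate 1 (1.06, adjusted p = 0.0802), nor with 1 plate row per library (1.31, adjusted p = 0.139, in a range from 0.00364). In Cont the change over days was not called (0.30, adjusted p = 0.619), and the interaction given below did not separate the series.

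Cbx7, the chromobox protein known as the main one of PRC1 in ESCs (chromosome 15, 79915807 to 79971119, minus strand), was 108, 114 and 54 in ESCs and 0, 2.17 and 0 in MEFs. The reads behind these values were 118, 63 and 42 in ESCs and 0, 2 and 0 in MEFs. All reprogramming libraries lay between 0 and 11.3, so ESCs stood apart from every other group. In +Sm3CA Cbx7 held 1 read on day 3 and 14 on day 10, a difference that DESeq2 called (adjusted p = 0.0289). In edgeR it was called with no filter on low counts (adjusted p = 0.0161) and without +Sm3CA day 3 replicate 3 (adjusted p = 0.0171). It was also called without +Sm3CA day 10 replicates 1 or 2 (adjusted p = 0.0307 and 0.0196), in a range to 0.0725. Cont of day 3 was not called against MEFs (adjusted p = 0.0925) except without MEF replicate 2 (adjusted p = 0.028, in a range to 0.449), which left MEFs with no read. The ratio of ESCs to MEFs was 137 with a counting interval of 37.5 to 1137, which is wide because MEFs held 2 reads. ESCs were higher than Cont of day 10, with 2.47, 2.39 and 3.77, by 4.92 (standard error 0.68, adjusted p = 8.45e-08). The size of this difference is uncertain, since Cont of day 10 held 2, 2 and 4 reads, with replicates 1 and 2 at or under the floor of detection. In the main fits Cbx7 passed the filter on low counts only with ESC libraries included, so being tested was not independent of its ESC level. Cbx2, another chromobox protein, had 192 reads in all 30 libraries and lay between 0 and 12.4 normalized counts. Neither edgeR nor DESeq2 called it in any comparison (0 at an unadjusted p under 0.05 in edgeR), and its groups overlapped in each comparison tested.

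**Figure D2:**
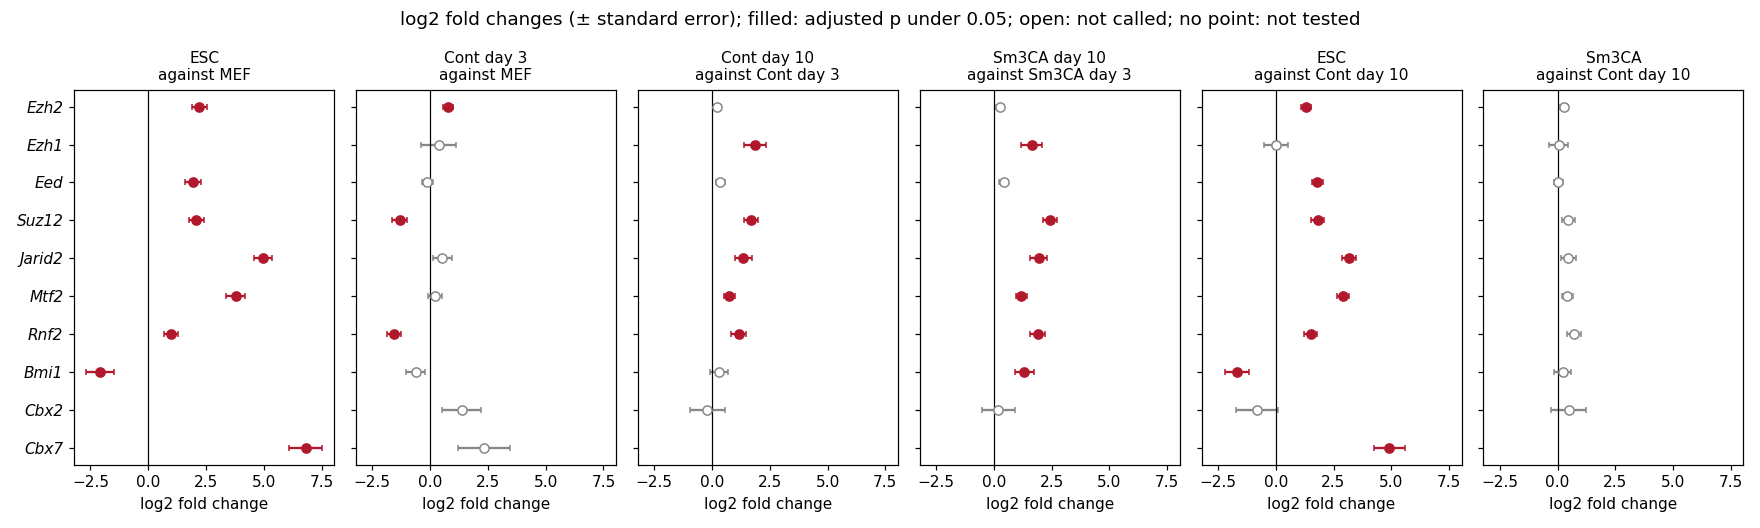
The log2 fold change of each subunit with its standard error in 6 comparisons, 1 panel each, with subunits on the vertical axis. Filled points were called at an adjusted p under 0.05, open points were not, and subunits without a point were not tested, such as Ezh1 and Cbx2 between ESCs and MEFs. Bmi1 is the 1 filled point at a negative value in both panels with ESCs.

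The effect of Smad3CA was asked on each day. On day 3, 0 of the 9 subunits tested were called (0.0195% of all genes), with 0 at an unadjusted p under 0.05 in edgeR and 0 called by DESeq2. On day 6 the counts were 0 called (0.00977% of all genes), 1 at an unadjusted p and 0 by DESeq2, and the 1 was Ezh2. Its libraries on that day were 138, 125 and 196 in +Sm3CA and 97.6, 124 and 102 in Cont, which lay just apart, with a log2 difference of 0.50 (standard error 0.18, adjusted p = 1). On day 8, 0 were called (1.04% of all genes), with 0 at an unadjusted p and 0 by DESeq2. On day 10, 0 were called (3.58% of all genes), 1 at an unadjusted p and 0 by DESeq2. Here the 1 was Rnf2, with a difference of 0.71 (standard error 0.29, adjusted p = 0.198). All 9 log2 differences of day 10 were positive, from 0.03 to 0.71 with a median of 0.42, and over all genes the median was −0.01. The 9 were measured in the same libraries and are not independent of each other. The share of all genes with a positive difference was not counted. In the same comparison 3 of the 8 markers of pluripotent cells were called higher (median 0.82) and 3 of the 8 fibroblast markers lower (median −0.97). Of the 5 neural markers 1 was called higher (median 0.54), with sums of 941, 303 and 238 in +Sm3CA. No proliferation, epithelial, macrophage or endothelial marker was called (medians 0.32, 0.07, −0.84 and −0.72, the last from 1 gene tested). The part of these markers in the differences of the subunits was not tested. Over all 10237 genes, 523, 426, 1559 and 1630 had an unadjusted p under 0.05 on days 3, 6, 8 and 10, and 1236 in the interaction. The interaction, the difference of day 10 minus that of day 3, was called for 0 of 9 (1.01% of all genes), with 0 at an unadjusted p and 0 by DESeq2, and ran from −0.22 to 1.01. A rise called in 1 series only, as for Bmi1, was thus not shown to differ between the series.

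Marker lists were followed over the same comparisons. The 8 markers of pluripotent cells were all called higher on day 10 than on day 3 in both series. They summed to 586, 391 and 968 in Cont and to 1002, 1135 and 2268 in +Sm3CA on day 10, with Dppa5a the most abundant, and to 25, 36.3 and 31.7 in Cont on day 3, where Esrrb, Fgf4 and Nanog had no read. All 5 epithelial markers were also called higher on day 10 in both series. They summed to 160, 184 and 166 in Cont on day 3 and to 809.9, 849.5 and 993 on day 10, with Krt8 most abundant and none at 0. The 5 neural markers summed to 1948, 694 and 686 in Cont on day 8, where replicate 1 stood apart and Mbp was most abundant, and over the Cont series 1 was called higher and 2 lower. In +Sm3CA on day 10 they summed to 941, 303 and 238, where replicate 1 stood apart and Mbp was again most abundant, and over that series 3 were called higher and 2 lower. Without that library the rise of Bmi1 in +Sm3CA was not called (1.06, adjusted p = 0.0802, in a range from 0.00364 to 0.139). Nor was it called without +Sm3CA day 3 replicate 2 (0.89, adjusted p = 0.101) or with 1 plate row per library (1.31, adjusted p = 0.139). Of 10 proliferation genes, 8 were called higher in ESCs than in MEFs and 10 higher than in Cont of day 10. They summed to 5809, 3878 and 5784 in ESCs, to 1782, 1777 and 1416 in MEFs and to 2268, 1841 and 2211 in Cont on day 10, with Pcna the most abundant gene in ESCs and none at 0. From day 3 to day 10, 1 of the 10 was called higher and 1 lower in each series. Of the fibroblast markers, 5 of 8 were called higher on day 10 than on day 3 in Cont, with sums of 1179, 2373 and 2413 against 763, 1106 and 1110, Dcn most abundant and none at 0. In +Sm3CA 3 were called higher and 1 lower, with sums of 1002, 1358 and 1179 on day 3, where Lum had no read, and of 1524, 1422 and 1186 on day 10. Between Cont of day 3 and MEFs, 7 of the 8 fibroblast and 3 of the 5 macrophage markers were called lower, and 1 fibroblast marker higher. In that comparison 3 epithelial markers were higher and 2 lower, and 3 of the 10 proliferation genes were higher and 0 lower, with sums of 2302, 2171 and 1965 in Cont on day 3. The macrophage markers summed to 589, 2576 and 2421 in Cont on day 10 and to 960, 1091 and 376 on day 3, mostly Lyz2, with 2 of 4 tested called higher. In +Sm3CA 2 of 4 were called higher too, with sums of 299, 369 and 631 on day 3 and of 925, 845 and 1546 on day 10. Between ESCs and Cont of day 10, all 8 fibroblast, all 5 macrophage and 4 of the 5 neural markers were called lower in ESCs, and of the epithelial markers 1 was higher and 2 lower. The part of these lists in the changes of the Polycomb subunits was not tested.

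The wider list held 37 genes, namely 7 further PRC2 genes, 23 of PRC1, 3 of the deubiquitinase, 2 demethylases of lysine 27 and the targets Cdkn2a and Cdkn2b. Of 25 tested between ESCs and MEFs, 12 were higher (23.5% of all genes) and 7 lower (28.8%), with a median of 0.88 (all genes −0.07). The PRC2 cofactor E130012A19Rik, now named Epop, was 55.7, 45.2 and 75.9 in ESCs, and MEFs held 3 reads in all, a ratio of 59.3 with a counting interval of 19.9 to 291. All 3 reads were in MEF replicate 2, and with 1 library left out the log2 difference of 5.69 ran from 5.05 to 8.72. The PRC1 subunit Phc1, a polyhomeotic protein, was higher by 4.83 (adjusted p = 2.2e-07), Pcgf6, of the variant PRC1, by 3.15 (adjusted p = 2.48e-05) and L3mbtl2, its partner, by 2.44 (adjusted p = 2.73e-05). The other polyhomeotic genes moved the opposite way, Phc2 by −2.73 (adjusted p = 0.000539) and Phc3 by −2.43 (adjusted p = 0.000726), together with Pcgf3 by −2.60 (adjusted p = 0.000603). Cdkn2b, an inhibitor of the cell cycle and a Polycomb target, was 111, 94.4 and 117 in MEFs, and ESCs held 1 read, a ratio of 262 with a counting interval of 46.7 to 10390. In this comparison Epop, Phc1 and Pcgf6 passed the filter on low counts only through ESCs. Phc2, Phc3, Pcgf3 and Cdkn2b passed it only through MEFs. For these genes being tested was not independent of the higher level.

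Between ESCs and Cont of day 10, 13 of 30 genes of the wider list were higher (21.5% of all genes) and 5 lower (30.3%), with a median of 0.61 (all genes −0.15). Phc1 was higher by 3.71 (adjusted p = 1.57e-11), Rbbp4, a histone-binding subunit of PRC2, by 2.39 (adjusted p = 1.56e-11), L3mbtl2 by 2.17 (adjusted p = 7.65e-08) and the demethylase Kdm6a by 1.70 (adjusted p = 0.000286). E2f6, a repressor in variant PRC1, fell by 1.89 (adjusted p = 5.79e-05) and Phc2 by 1.80 (adjusted p = 0.000981). Cdkn2b held 54 reads in Cont of day 10 and 1 in ESCs, a ratio of 48.4 with a counting interval of 8.32 to 1946. Cdkn2a had 2, 6 and 1 reads in Cont on day 10, where replicates 1 and 3 were at or under the floor of detection, and none in ESCs, so no fold is given. Its call as lower in ESCs than in Cont of day 10 (adjusted p = 0.0249) was lost without Cont day 10 replicate 2 (adjusted p = 0.131, in a range from 0.0155), ESC replicate 1 (adjusted p = 0.0785) or ESC replicate 3 (adjusted p = 0.0598).

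Between Cont of day 3 and MEFs, 5 of 30 were higher (22.6% of all genes) and 7 lower (20.9%), with a median of −0.09 (all genes 0.00). These shares were near those of all genes. Epop stood at 37.4, 27.2 and 29.3 on day 3, a ratio of 31.5 to the 3 reads of MEFs with a counting interval of 10.5 to 155. With 1 library left out its log2 difference of 4.91 ran from 4.29 to 8.08, all 3 reads being in MEF replicate 2. Cdkn2b was 14.3, 19.5 and 13 and fell by 2.69 (adjusted p = 1.85e-08), Phc3 by 2.09 (adjusted p = 4.68e-06) and Phc2 by 1.57 (adjusted p = 0.000522). Cbx6 was called lower (adjusted p = 0.000879), with 54 reads in MEFs and 5 on day 3, where no library held more than 3, a ratio of 11.3 with a counting interval of 4.57 to 36.3. Calls of 3 higher genes were less stable. L3mbtl2, higher by 1.04 (adjusted p = 0.00653), was not called without Cont day 3 replicate 2 (0.83, adjusted p = 0.0552) or with 1 plate row per library (0.92, adjusted p = 0.122), in a range from 0.00543. Auts2, higher by 1.33 (adjusted p = 0.0133), was not called without MEF replicate 2 (0.91, adjusted p = 0.119) or Cont day 3 replicate 1 (0.96, adjusted p = 0.134) or with 1 plate row per library (adjusted p = 0.136), in a range from 0.00592. Pcgf5, higher by 1.29 (adjusted p = 0.0234), was not called without MEF replicate 1 (adjusted p = 0.0769), MEF replicate 2 (0.97, adjusted p = 0.134) or Cont day 3 replicate 3 (adjusted p = 0.0873) or with 1 plate row per library (adjusted p = 0.14), in a range from 0.0119.

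Over the Cont series 4 of 27 genes of the list were higher (13.6% of all genes) and 1 lower (11.6%), with a median of 0.24 (all genes 0.09), and DESeq2 called 2. The share of higher genes was near that of all genes. Mga, of the variant PRC1, rose by 0.96 (adjusted p = 0.00128) and held its call in all 12 alternatives. Phc1, higher by 1.27 (adjusted p = 0.0338), lost its call without any 1 of the Cont day 3 libraries (adjusted p = 0.0625, 0.101 and 0.0779 for replicates 1, 2 and 3) and without Cont day 10 replicate 3 (0.64, adjusted p = 0.411, in a range from 0.0148), and also in DESeq2 (adjusted p = 0.0729) and with 1 plate row per library (adjusted p = 0.144). Pcgf6, higher by 1.19 (adjusted p = 0.0222), lost it without Cont day 3 replicate 1 (0.93, adjusted p = 0.132) and without Cont day 10 replicates 1 or 2 (adjusted p = 0.051 and 0.0855) and with 1 plate row per library (adjusted p = 0.129), in a range from 0.00811. Auts2, lower by a log2 change of −1.18 (adjusted p = 0.0337), lost it without Cont day 3 replicate 1 (−0.85, adjusted p = 0.218) and without Cont day 10 replicates 1 or 2 (adjusted p = 0.0688 and 0.158), in a range from 0.0184, and also in DESeq2 (adjusted p = 0.0646), with only the groups compared in the fit (adjusted p = 0.0536) and with 1 plate row per library (adjusted p = 0.0773). Asxl2, of the deubiquitinase, was higher by 0.58 (adjusted p = 0.0496) and lost its call in 11 of 12 alternatives, the culture block and each left-out library among them (adjusted p from 0.0457 to 0.168, and 0.0533 with the block).

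Over the +Sm3CA series 7 of 27 were higher (17.6% of all genes) and 3 lower (16.2%), with a median of 0.29 (all genes 0.05), and DESeq2 called 8. Phc1 rose by 2.91 (adjusted p = 4.32e-06), Kdm6a by 1.84 (adjusted p = 0.000478) and Mga by 1.27 (adjusted p = 2.68e-05). The Kdm6a call was lost with 1 plate row per library (1.23, adjusted p = 0.0992, in a range from 4.59e-05). E2f6 fell by 1.57 (adjusted p = 1.22e-05), and Bcorl1, a corepressor of variant PRC1, went from 42 reads to 1, a ratio of 30.1 with a counting interval of 5.12 to 1219. Pcgf5, higher by 1.08 (adjusted p = 0.0235), was not called without +Sm3CA day 3 replicate 2 (0.60, adjusted p = 0.182) or day 10 replicate 2 (adjusted p = 0.0929), in a range from 0.00309. Yaf2, with a change of −1.02 (adjusted p = 0.033), was not called without +Sm3CA day 3 replicates 1 or 3 (adjusted p = 0.146 and 0.0622) or day 10 replicates 2 or 3 (adjusted p = 0.0926 and 0.199), in a range from 0.00913, nor in DESeq2 (adjusted p = 0.0629), with only the groups compared in the fit (adjusted p = 0.0566) or with 1 plate row per library (adjusted p = 0.103), and its groups overlapped. Between +Sm3CA and Cont, E2f6 on day 10 was the 1 gene of the 27 tested that edgeR called (3.58% of all genes), and DESeq2 called 0. At an unadjusted p under 0.05 there were 6, against 1630 of all 10237 genes. E2f6 was 23.8, 18.6 and 16.9 against 29.6, 52.6 and 35.8, a difference of −0.98 (standard error 0.28, adjusted p = 0.0343). That call was lost in 8 of 12 alternatives (adjusted p from 0.0186 to 0.293), among them those without Cont day 10 replicate 2 (−0.71, adjusted p = 0.272) or 3 (adjusted p = 0.0721) and without +Sm3CA day 10 replicate 2 (adjusted p = 0.149) or 3 (adjusted p = 0.167). On days 3, 6 and 8 edgeR and DESeq2 called 0 genes of the list (in edgeR 0.0195%, 0.00977% and 1.04% of all genes). At an unadjusted p under 0.05 there were 0, 0 and 3, against 523, 426 and 1559 of all 10237 genes. The interaction was called for 0 by either tool (in edgeR 1.01% of all genes), with 6 at an unadjusted p under 0.05 in edgeR, against 1236 of all 10237 genes.

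Among 8889 genes with a mean of at least 20 normalized counts in 1 or more groups, those whose group means followed Ezh2 most closely over the 10 groups were Cobl (Pearson's r = 0.990), Fzd5 (0.975) and Zfp459 (0.972). For Cbx7 they were Mpdu1 (0.966), Pdcd7 (0.964) and Tra2a (0.963). These values describe log2(mean + 1) profiles in which ESCs lie far from the rest. Ezh1 did not reach the minimum in any group.

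Promoter sequence was available from RefSeq (GRCm38.p6) for 9 of the 10 subunits, in 11 windows of 300 bases, and Cbx2 had no entry. The 3 core subunits that were all higher in ESCs are shown, 5′ to 3′ on the strand of the gene, to set side by side the E2F-type matches found in 2 of them. Capitals mark matches to any of 6 motifs searched on both strands, with no overlaps found between different motifs in these 3 windows. The motifs were TTTCCCGC, TTTGGCGC, CCGGAAGT, ATGCAAAT, CAGACA and GTCTAGAC, which occurred in 1.07%, 0.514%, 3.89%, 1.74%, 21% and 0.213% of all 32851 promoter windows.
Ezh2: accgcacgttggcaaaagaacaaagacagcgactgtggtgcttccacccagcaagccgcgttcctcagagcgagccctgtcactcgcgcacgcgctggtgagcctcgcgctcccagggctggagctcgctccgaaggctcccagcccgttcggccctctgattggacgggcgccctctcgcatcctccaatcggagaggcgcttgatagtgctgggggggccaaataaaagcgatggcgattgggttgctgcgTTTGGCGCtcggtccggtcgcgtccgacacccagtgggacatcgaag
Suz12: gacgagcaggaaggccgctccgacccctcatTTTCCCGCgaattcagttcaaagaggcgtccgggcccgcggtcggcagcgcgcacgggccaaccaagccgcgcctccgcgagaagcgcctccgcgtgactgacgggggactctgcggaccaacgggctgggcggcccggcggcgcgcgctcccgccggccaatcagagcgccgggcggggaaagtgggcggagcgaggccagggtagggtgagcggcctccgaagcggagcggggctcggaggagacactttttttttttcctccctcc
Eed: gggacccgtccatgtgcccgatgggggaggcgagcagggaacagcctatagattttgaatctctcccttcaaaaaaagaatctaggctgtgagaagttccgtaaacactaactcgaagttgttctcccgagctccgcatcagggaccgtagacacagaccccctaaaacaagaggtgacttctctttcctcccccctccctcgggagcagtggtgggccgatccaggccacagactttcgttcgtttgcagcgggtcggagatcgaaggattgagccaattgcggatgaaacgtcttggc
The Ezh2 window (chr6:47594981-47595280, minus strand) held TTTGGCGC at base 254, the Suz12 window (chr11:79992856-79993155, plus strand) held TTTCCCGC at base 32, and the Eed window (chr7:89980927-89981226, minus strand) held none of the 6. In the windows not shown, CAGACA was found at 2 positions of the Rnf2 window and at 1 position in each of 2 Mtf2 windows, with no other match. The Ezh2, Suz12 and Eed windows contained 31, 41 and 17 CpG dinucleotides, against a median of 7 over all windows. Both E2F-type motifs contain a CpG, and their shares were not worked out for windows this rich in CpG. A match describes letters in a window and is not a binding site.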

How the data were processed

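RNA was measured with STRT RNA-seq in 84 wells, and the counts the authors deposited are raw reads for each gene in each well, neither normalized nor collapsed to molecules. The submitters' processing notes name Bowtie 0.12.9, DESeq2 1.6.3 and the build mm10. The library protocol that the study cites keeps strand, by its title, while the annotation and any use of strand in counting are not given in the sources used here. Counted without strand, reads of Eed could not be told apart from those of E230029C05Rik, which overlaps its 5′ end on the opposite strand. Mtf2, Rnf2 and Cbx7 overlap opposite genes at the 3′ ends of both, away from the 5′ ends sequenced. Wells of a replicate (3, or 2 on day 10) were summed, and all 84 were used.

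Genes were tested with edgeR 4.0.16 (TMM, filterByExpr, glmQLFit and glmQLFTest) in R 4.3.3, and adjusted over all genes. ESCs and MEFs had a fit of 6 libraries. Cont of day 3 against MEFs and ESCs against Cont of day 10 came from 30 libraries, all else from the 24 reprogramming libraries. Standard errors were derived from the fold change and its F statistic. Normalized counts and an alternative Wald test came from DESeq2 1.42.0, and tables from Python 3.11.15 with pandas 2.3.3. The fits were tested on simulated data. The series' design text pairs replicates over days within a series. Deviations of paired libraries from their group means correlated by −0.073 to 0.065 in Cont and −0.058 to 0.118 in +Sm3CA over 18 pairs each, and the culture block was an alternative.

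Named are all 10 subunits, Smad3, leading markers and up to 4 called genes of the wider list with the largest change per direction and comparison. The 3 genes most like Ezh2 and the 3 most like Cbx7 are named too, and none for Ezh1, which did not reach the minimum. The subunits and lists were chosen with earlier results of these data known. Positions are from GENCODE M21 (GRCm38). Other alternatives were DESeq2 size factors, no filter, other libraries in the fit, 1 plate row per library and leaving out each library. A planned share of reads is not reported here.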

Additional observations from a re-analysis of the deposited data

Results flagged for a closer look

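For Smad3, read as the check of the vector labels, the difference between +Sm3CA and Cont itself differed between days. The interaction in edgeR, the difference of day 10 minus that of day 3, was −2.54 (standard error 0.51, adjusted p = 0.00585). Over all genes 1.01% were called in the interaction, among them 2 of the 8 fibroblast markers, both lower. The Smad3 call was lost without Cont day 10 replicate 3 (−2.32, adjusted p = 0.0528, in a range from 9.22e-06). Within +Sm3CA, Smad3 counts fell by 1.69 from day 3 to day 10 (standard error 0.30, adjusted p = 3.21e-05), and all 3 libraries of day 10 lay below those of day 3. Within Cont the change was 0.85 (standard error 0.41, adjusted p = 0.128), which was not called. The part of the lower Smad3 counts of day 10 in the differences of the Polycomb subunits between the series was not tested.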

How the results depend on the processing

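The number of subunits called stayed within 1.5 times in all alternatives of 9 comparisons. Among these it was 0 throughout between +Sm3CA and Cont on each day and in the interaction. Between Cont of day 3 and MEFs it stayed 3 without MEF replicate 2, although Ezh2 lost its call and Cbx7 gained one. The number moved for Cont of day 10 against day 3, from 5 to 2 with 1 plate row per library and to between 3 and 5 with 1 library left out. The low values came without Cont day 3 replicate 1 or day 10 replicate 2. The cause was not tested, although 1 plate row holds fewer reads and fewer genes passed the filter. No called difference turned its direction. Of the wider list, edgeR called 5 genes over the Cont series and DESeq2 2, over the +Sm3CA series 10 and 8, and on day 10 between +Sm3CA and Cont 1 and 0. The calls over all genes between +Sm3CA and Cont also moved. On day 8, 39 were higher and 67 lower. Without +Sm3CA day 8 replicate 3 these were 203 and 320, and without replicate 2 they were 6 and 15. Those of day 10 (85 and 281) were 42 and 134 without +Sm3CA day 10 replicate 3. In the interaction 11 and 92 became 1 and 26 without Cont day 3 replicate 1, and 34 and 158 without Cont day 10 replicate 1.

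With the culture as a block for the paired days, 5 subunits were called in Cont and 6 in +Sm3CA, and the block changed no subunit's call. Elsewhere the samples share only a number. With that number as a block, 8 were called between ESCs and MEFs, 3 between Cont of day 3 and MEFs, 8 between ESCs and Cont of day 10, and 0 between +Sm3CA and Cont on any day or in the interaction. Deviations of same-numbered libraries correlated by −0.102 to 0.075 between the series, and not every library correlated best with its own number.

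The Ezh2 share moved by more than 1 SD with 1 plate row per library in Cont on day 8 (85.8%) and +Sm3CA on day 3 (97.4%), and in no other group or alternative.

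Depth limits Ezh1 and Cbx2 in most groups, Bmi1 in ESCs and Cbx7 outside ESCs, where few reads carry the values. For Ezh1, libraries at or under the floor of detection were found only in MEFs (2) and ESCs (1).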
